A study of Mus musculus with 12 samples.

Results

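The Usp genes encode ubiquitin-specific proteases, the largest family of deubiquitinases, and their mRNAs were followed here in RNA co-purified with the m6A readers YTHDF1, YTHDF2 and YTHDF3. The members were the protein-coding genes whose symbol is Usp followed by a number and at most 1 letter in the deposited YTHDF1 table. This gave 46 genes of the 16716 in that table and of the 55573 in the count table, and all 46 passed the filter on low counts (a mean of at least 10 normalized counts). Usp30 stood on 2 lines of that table and was counted once. The 4 other annotated protein-coding Usp genes, Usp18, Usp26, Usp44 and Usp9y, had 69, 5, 19 and 2 counts over all 12 libraries and are not members.

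All 4 groups were primary hippocampal neurons of C57BL/6 mice, taken from newborn pups, pooled over sexes and grown for 14 days with Ara-C against dividing glia. The labels of the groups name no treatment or genetic alteration. The study's methods for dissociated cultures describe TTX and D-AP5 before harvest to suppress synaptic activity. Its RIP methods do not say whether these neurons received them. Each group had 3 libraries: Input, which is RNA from a fraction of the lysate, and RNA immunoprecipitated (RIP) with an antibody against endogenous YTHDF1, YTHDF2 or YTHDF3. Per the study's methods, lysates of pooled wells were split over the 3 RIPs with 1 shared Input, and there was no control antibody, so a value over Input includes RNA that binds beads or antibody without the reader. The p-values rest on the spread between the 3 libraries of a group, estimated in 1 fit shared by all 12 libraries. The study calls them biological replicates, but the spread may be partly technical.

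The libraries held 9092494 to 13833973 counts for Input, 10037804 to 38909592 for YTHDF1 RIP, 6020072 to 9259893 for YTHDF2 RIP and 21395271 to 22400602 for YTHDF3 RIP. In Input, 8 neuron markers summed to 2655 to 4267 CPM (counts scaled by library size and TMM) and 6 astrocyte markers to 297 to 2741 CPM. Of 5 microglia markers only 1 passed the filter, and all 5 together summed to 2.49 to 6.22 CPM. Of 5 oligodendrocyte markers 2 passed, and all 5 together summed to 10.7 to 22.2 CPM. The summed astrocyte level ranged from 380 to 1249 CPM in YTHDF1 RIP, 761 to 1382 in YTHDF2 RIP and 205 to 1606 in YTHDF3 RIP, and its part in the results was not tested.

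Ubiquitin is attached to proteins by E1, E2 and E3 enzymes and removed by deubiquitinases, of which the Usp proteins are cysteine proteases. They recycle free ubiquitin, spare substrates from the proteasome, and edit signals on histones, receptors and membranes. In neurons several are known for acting at synapses: Usp14 is bound to the proteasome and Usp8 acts on endosomes, while Usp46 and Usp12 remove ubiquitin from AMPA-type glutamate receptors. YTHDF proteins bind mRNAs at N6-methyladenosine, which is placed by the METTL3 complex mainly in the sequence DRACH, of which GGACT is a frequent form, and often near stop codons.

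The letters GGACT were searched in the sense strand of 1 coding transcript per gene (GENCODE M21, GRCm38), with no overlap with another motif possible. They were found in 45 of 46 members (97.8%) against 91.8% of 13283 tested protein-coding genes. Usp28 had none. Within 200 bases of the stop codon they were found in 11 members (23.9%) against 38.95% of these genes. Windows of 6 of those 11 are shown as examples of where the letters lie. These 6 mRNAs were enriched in at least 1 RIP, as were all of the 11 but Usp39. The motif is in capitals, each is written 5′ to 3′ on the mRNA strand, and a match is a description of the letters, not a measured methylation site.
Usp5: gctgagggatGGACTtcagcccctg
Usp7: taaatttgaaGGACTttgagccaca
Usp10: ttcagaagctGGACTgttgcctggg
Usp19: agacttgtggGGACTgcagtctctg
Usp25: taaactgcccGGACTtcccagggtc
Usp47: agcactgattGGACTgcccttcacc
The Usp7 window is coding (chr16:8691151-8691175, minus strand). The others are in 3′UTRs: Usp5 at chr6:124815482-124815506 (minus), Usp10 at chr8:119956932-119956956 (plus), Usp19 at chr9:108501538-108501562 (plus), Usp25 at chr16:77115560-77115584 (plus) and Usp47 at chr7:112110224-112110248 (plus). Of the 11 members with the letters near the stop, 8 were enriched in YTHDF1 RIP, 5 in YTHDF2 RIP and 7 in YTHDF3 RIP, where 27.5%, 16.1% and 16.7% of all genes tested were. By edgeR and by DESeq2, 0 of the 11 were depleted in any RIP, and at an unadjusted p of 0.05 or less 0, 0 and 1 were. Of the other 35, 18, 14 and 20 were enriched and 3, 2 and 1 depleted. Of all genes tested, 26.1%, 19.3% and 23.2% were depleted. The median log2 fold changes were 0.75, 0.54 and 0.88 for the 11 and 0.77, 0.40 and 0.71 for the 35.

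In Input, Usp22, a subunit of the SAGA coactivator that removes ubiquitin from histone H2B, was the most abundant member. Its level per kilobase of exon was 110 ± 16.6 CPM/kb (SD, n = 3). Usp9x and Usp5 followed at 21.7 ± 2.20 and 19.6 ± 1.66 CPM/kb, and these neighbours did not differ beyond their spread. Usp11, Usp12 and Usp8 lay at 13.6 ± 2.16, 13.0 ± 2.15 and 12.8 ± 2.20 CPM/kb, also within their spread. The lowest were Usp43, Usp40 and Usp51, at 1.1 ± 0.38, 0.964 ± 0.230 and 0.826 ± 0.176 CPM/kb. These levels are divided by all annotated exonic bases of a gene, which can exceed 1 mRNA. Usp40 has 11.9 kb of them and 3977 bases in its coding transcript. The order by transcript length was not tested. Together the 46 mRNAs made up 0.279% ± 0.0104 of Input counts (SD, n = 3), 0.611% ± 0.0842 of YTHDF1 RIP, 0.407% ± 0.0167 of YTHDF2 RIP and 0.586% ± 0.0117 of YTHDF3 RIP.

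Against Input, a larger share of Usp mRNAs than of all genes was recovered at higher levels in each of the 3 RIPs. A gene was called enriched or depleted when its log2 fold change was 0.32 or more in size with an adjusted p of 0.05 or less (edgeR quasi-likelihood test, Benjamini-Hochberg over 16820 genes). In YTHDF1 RIP 26 of 46 members were enriched (56.5%, against 27.5% of all genes tested) and 3 depleted (background 26.1%). In YTHDF2 RIP 19 were enriched (41.3%, background 16.1%) and 2 depleted (19.3%). In YTHDF3 RIP 27 were enriched (58.7%, background 16.7%) and 1 depleted (23.2%). With the replicate number as a block in Input and YTHDF3 RIP alone, these were 35 and 2, with 36.5% and 32.3% of all genes. The members' median log2 fold changes were 0.76 (YTHDF1), 0.47 (YTHDF2) and 0.75 (YTHDF3), where the medians of all genes tested were 0.02, 0.02 and 0.05. All 3 RIP libraries lay above all 3 Input libraries for 29, 27 and 30 members, compared with 28.0%, 25.5% and 26.8% of all genes.

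**Figure D1:**
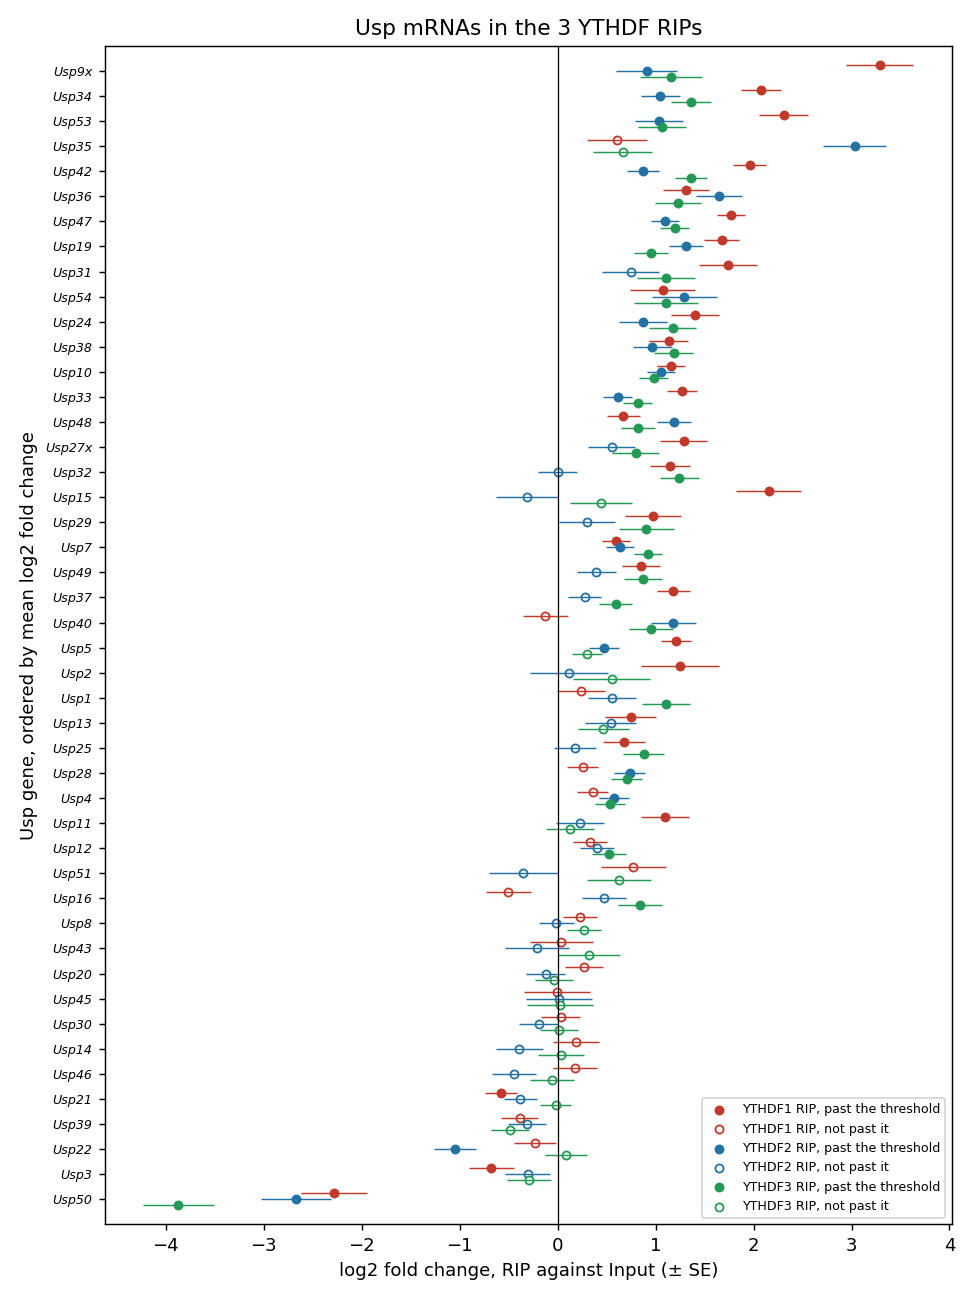
Log2 fold change of each of the 46 Usp mRNAs in the YTHDF1, YTHDF2 and YTHDF3 RIPs against Input, with standard errors (3 libraries a group). Filled points passed the threshold, open points did not. Usp9x in YTHDF1 RIP (3.29) and Usp35 in YTHDF2 RIP (3.03) lie farthest to the right, and Usp50 lies far to the left in all 3 RIPs.

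The scale of these values depends on the normalization. When the libraries were scaled only by their totals, without TMM, the median of all genes moved to -0.38 in YTHDF1 RIP and 0.38 in YTHDF3 RIP, and the members' medians to 0.37 and 1.08. The members then split into 18 enriched and 6 depleted in YTHDF1 RIP, where 18.3% and 36.5% of all genes were. In YTHDF2 RIP they split into 21 and 2 (all genes 17.4% and 18.1%), and in YTHDF3 RIP into 33 and 1 (28.7% and 17.8%). The YTHDF1 calls of Usp2, Usp7, Usp13, Usp25, Usp29, Usp48, Usp49 and Usp54 were lost under this scaling (0.19 to 0.86). With TMM factors from protein-coding genes alone, the split was 23 and 5 in YTHDF1 RIP (all genes 21.8% and 32.4%), 17 and 3 in YTHDF2 RIP (13.0% and 22.3%), and 27 and 2 in YTHDF3 RIP (15.6% and 24.2%). This ended the YTHDF1 calls of Usp13, Usp25 and Usp48 (0.43 to 0.50) and the YTHDF2 calls of Usp5 (0.36) and Usp9x (0.79). The order of the 3 RIPs by their counts of enriched members thus changed with the scaling, and differences between these counts were not tested.

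The 14 members enriched in all 3 RIPs made up 30.4% of the family, against 8.63% of all genes tested. They were Usp7, Usp9x, Usp10, Usp19, Usp24, Usp33, Usp34, Usp36, Usp38, Usp42, Usp47, Usp48, Usp53 and Usp54. The 3 comparisons share their Input libraries, so these calls are not independent of each other. Another 7 were enriched in the YTHDF1 and YTHDF3 RIPs (Usp25, Usp27x, Usp29, Usp31, Usp32, Usp37 and Usp49), 3 in the YTHDF2 and YTHDF3 RIPs (Usp4, Usp28 and Usp40), and Usp5 in the YTHDF1 and YTHDF2 RIPs. Enrichment passed the threshold in 1 RIP for Usp2, Usp11, Usp13 and Usp15 (YTHDF1), Usp35 (YTHDF2), and Usp1, Usp12 and Usp16 (YTHDF3). With the replicate number as a block in Input and YTHDF3 RIP alone, Usp2, Usp5, Usp13, Usp15 and Usp35 were enriched in YTHDF3 RIP too. Passing in 1 RIP and missing in another is not a difference between them, which is tested further on.

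Of the 3 members that act on free ubiquitin chains or on the proteasome, Usp5, which disassembles unanchored chains, had 98.0, 82.7 and 90.7 CPM in Input and 183, 232 and 213 CPM in YTHDF1 RIP. It was enriched there by 1.21 ± 0.15 (log2, SE, adjusted p = 8.3e-05, edgeR). In YTHDF2 RIP it reached 116, 127 and 133 CPM, a log2 change of 0.47 ± 0.15 (adjusted p = 0.033, edgeR), a call that was lost without any 1 of the 3 Input or 3 YTHDF2 libraries or YTHDF3 RIP replicate 2 (0.40 to 0.53). In YTHDF3 RIP its change of 0.30 ± 0.15 did not pass by edgeR, but did with the replicate number as a block in Input and YTHDF3 RIP alone (0.36, adjusted p = 0.0016, edgeR). Its paralogue Usp13 was enriched by 0.75 ± 0.26 in YTHDF1 RIP, but not without Input replicate 3 or YTHDF1 RIP replicate 1 or 3 (0.42 to 0.67). It had 0.54 ± 0.26 in YTHDF2 RIP and 0.47 ± 0.26 in YTHDF3 RIP, where the blocked test passed (0.54, adjusted p = 0.00018, edgeR). Usp14, the proteasome-bound member, had 70.8, 57.9 and 48.0 CPM in Input and overlapped with it in every RIP. Its log2 changes were 0.18 ± 0.24, -0.39 ± 0.24 and 0.03 ± 0.23, with adjusted p of 0.53, 0.22 and 0.92 (edgeR). In YTHDF3 RIP, 0 of the 3 members were enriched by edgeR and 1 by DESeq2.

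Among 9 members at endosomes, the plasma membrane and organelles, 4 were enriched in YTHDF1 RIP, 3 in YTHDF2 RIP and 5 in YTHDF3 RIP. For this and the following groups of members, the shares of all genes tested were 27.5%, 16.1% and 16.7% enriched. The shares depleted were 26.1%, 19.3% and 23.2%. In no RIP was any of the 9 depleted (0 by edgeR, also at an unadjusted p of 0.05 or less, and 0 by DESeq2). Usp9x, a large X-linked member (chrX:13071498-13173328, plus strand) that acts on synaptic scaffolds and signalling proteins, had 355, 333 and 290 CPM in Input and 1760, 3698 and 4094 CPM in YTHDF1 RIP. All YTHDF1 libraries were far above Input, with replicate 1 well below the other two. The change was 9.77-fold, or 3.29 ± 0.34 on the log2 scale (adjusted p = 2.4e-05, edgeR). In YTHDF3 RIP it had 838, 725 and 622 CPM, a log2 change of 1.16 ± 0.32, a call lost with the length trend removed (0.46, adjusted p = 0.18, edgeR). In YTHDF2 RIP it had 620, 434 and 779 CPM, a log2 change of 0.91 ± 0.32 (adjusted p = 0.043, edgeR). That last call was lost without any 1 of 8 libraries: the 3 Input, the 3 YTHDF3 RIP, and YTHDF2 RIP replicates 1 and 3 (0.70 to 0.97).

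Usp19, which has a form anchored in the endoplasmic reticulum, had 48.8, 63.2 and 49.4 CPM in Input. It rose by 1.67 ± 0.18 in YTHDF1 RIP, 1.31 ± 0.18 in YTHDF2 RIP and 0.95 ± 0.17 in YTHDF3 RIP (log2, SE). Usp33 and its paralogue Usp20 act on receptors and their trafficking. Usp33 rose by 1.26 ± 0.15, 0.61 ± 0.15 and 0.82 ± 0.15, whereas Usp20 did not pass in any RIP, at 0.27 ± 0.19, -0.12 ± 0.20 and -0.04 ± 0.19. Usp46 and Usp12 form another pair. Usp46 passed in none, at 0.18 ± 0.22, -0.45 ± 0.22 and -0.06 ± 0.22, and Usp12 passed in YTHDF3 RIP, at 0.33 ± 0.17, 0.40 ± 0.17 and 0.53 ± 0.17. The Usp12 call was lost without Input replicate 2 or 3 or any 1 YTHDF3 library (0.44 to 0.56). Usp8 on endosomes had 0.23 ± 0.17, -0.01 ± 0.18 and 0.27 ± 0.17, and Usp30 on mitochondria 0.03 ± 0.20, -0.19 ± 0.20 and 0.01 ± 0.20. Usp8 passed in YTHDF3 RIP when Input and YTHDF3 RIP were compared alone with the replicate number as a block (0.34, adjusted p = 0.0032, edgeR).

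Of 16 members known for chromatin, DNA repair and the cell cycle, 8 were enriched with YTHDF1, 6 with YTHDF2 and 11 with YTHDF3, and 2, 1 and 0 were depleted by edgeR, the last also 0 at an unadjusted p of 0.05 or less and by DESeq2. Usp7, which stabilizes MDM2 and p53, had 79.1, 75.6 and 82.2 CPM in Input. It rose by 0.60 ± 0.14, 0.63 ± 0.14 and 0.92 ± 0.14. Its paralogue Usp47, which acts on DNA polymerase beta, had 89.8, 93.7 and 97.8 CPM in Input and 302, 324 and 334 CPM in YTHDF1 RIP. Its changes were 1.77 ± 0.15, 1.1 ± 0.14 and 1.19 ± 0.14, and no RIP library of either gene overlapped with Input. Usp42 rose by 1.96 ± 0.17, 0.87 ± 0.17 and 1.36 ± 0.17. Its YTHDF2 call was lost with no filter on low counts (0.77, adjusted p = 0.054, edgeR). Usp36, a nucleolar enzyme, rose by 1.31 ± 0.23, 1.65 ± 0.24 and 1.23 ± 0.23. Usp48 rose by 0.67 ± 0.17, 1.19 ± 0.17 and 0.82 ± 0.17, and its YTHDF1 call was lost without Input replicate 3 (0.50).

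Usp1, which acts on FANCD2 and PCNA in DNA repair, rose by 1.11 ± 0.24 in YTHDF3 RIP and had 0.24 ± 0.24 and 0.56 ± 0.24 in the YTHDF1 and YTHDF2 RIPs. Usp27x, a paralogue of Usp22, rose by 1.29 ± 0.24 in YTHDF1 RIP and 0.80 ± 0.24 in YTHDF3 RIP and had 0.55 ± 0.24 in YTHDF2 RIP. Its YTHDF3 call was lost without Input replicate 2 or 3 or YTHDF3 RIP replicate 1 or 2 (0.73 to 0.78). Usp37, which acts on cyclin A, rose by 1.18 ± 0.17 and 0.59 ± 0.17 in the same RIPs, the second not without Input replicate 2 (0.51), and had 0.28 ± 0.17 in YTHDF2 RIP. Usp49, a histone H2B deubiquitinase, rose by 0.85 ± 0.19 and 0.87 ± 0.19 in these RIPs and had 0.40 ± 0.20 in YTHDF2 RIP. Reads of Usp49 may also belong to a neighbour, since 51.2% of its exonic bases overlap another gene on the same strand.

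Usp22 went the other way in 1 RIP. It had 589, 444 and 580 CPM in Input and 248, 288 and 245 CPM in YTHDF2 RIP, so that all YTHDF2 libraries lay below Input. The log2 change was -1.05 ± 0.22 (adjusted p = 0.0036, edgeR). In the YTHDF1 and YTHDF3 RIPs its libraries overlapped with Input, at -0.23 ± 0.21 and 0.09 ± 0.21. Usp3 and Usp21, both histone H2A deubiquitinases, were depleted in YTHDF1 RIP by edgeR, at -0.68 ± 0.23 and -0.58 ± 0.16. In the YTHDF2 and YTHDF3 RIPs Usp3 had -0.31 ± 0.23 and -0.29 ± 0.23, and Usp21 -0.38 ± 0.17 and -0.02 ± 0.16, short of the threshold. Leaving out YTHDF1 RIP replicate 1 ended the Usp3 call (-0.65). With no filter on low counts, the calls of Usp3 and Usp21 were both lost (adjusted p = 0.062 and 0.158, edgeR). They were also lost with the replicate number as a block in Input and YTHDF1 RIP alone (adjusted p = 0.099 and 0.105, edgeR). Usp51 and Usp45 of the same group passed in no RIP. Usp51 had 0.77 ± 0.33, -0.35 ± 0.36 and 0.63 ± 0.33 at only 1.20 to 3.85 CPM over all libraries and passed in YTHDF3 RIP in the blocked test (0.71, adjusted p = 0.012, edgeR), and Usp45 had -0.01 ± 0.34, 0.01 ± 0.34 and 0.03 ± 0.33.

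Of 8 members in signalling and splicing, 6, 3 and 4 were enriched. Depleted were 0 in each RIP by edgeR and by DESeq2, and 0, 0 and 1 at an unadjusted p of 0.05 or less. Usp15, which acts on SMAD signalling, had 108, 93.4 and 87.9 CPM in Input and 204, 610 and 475 CPM in YTHDF1 RIP, a log2 change of 2.15 ± 0.33. In YTHDF2 RIP it had 83.0, 75.7 and 74.4 CPM (-0.31 ± 0.32) and in YTHDF3 RIP 159, 123 and 111 CPM (0.44 ± 0.32). Its paralogue Usp11 likewise passed in YTHDF1 RIP, at 1.09 ± 0.25, 0.23 ± 0.24 and 0.12 ± 0.24. The Usp11 call was lost with the replicate number as a block in Input and YTHDF1 RIP alone (0.98, adjusted p = 0.057, edgeR). The third of this set, Usp4, had 0.36 ± 0.15, 0.57 ± 0.15 and 0.54 ± 0.15 and passed in the YTHDF2 and YTHDF3 RIPs. These Usp4 calls were lost without Input replicate 1 or 2 or YTHDF2 RIP replicate 2 (0.50 to 0.55), and without Input replicate 1 or 2 or YTHDF3 RIP replicate 2 or 3 (0.46 to 0.54). Usp15 passed in YTHDF3 RIP with the replicate number as a block in the 2 groups alone (0.49, adjusted p = 5.1e-05, edgeR). Its YTHDF1 call was lost with the length trend removed together with the replicate block (0.75, adjusted p = 0.069, edgeR).

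Usp2, which acts on cyclin D1 and on circadian clock proteins, had 15.2, 20.3 and 14.3 CPM in Input and 41.2, 18.85 and 58.3 CPM in YTHDF1 RIP, where replicate 2 overlapped with Input. Its log2 changes were 1.249 ± 0.40, 0.12 ± 0.40 and 0.55 ± 0.40. Leaving out Input replicate 1, Input replicate 3 or YTHDF1 RIP replicate 3 ended its YTHDF1 call (0.77 to 1.19). It was also lost with library size alone (0.86, adjusted p = 0.078, edgeR) and when Input and YTHDF1 RIP were compared alone (1.16, adjusted p = 0.052, edgeR). In YTHDF3 RIP Usp2 passed with the replicate number as a block in the 2 groups alone (0.61, adjusted p = 2.4e-05, edgeR).

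Usp34, which acts in Wnt signalling and has the largest summed exonic length of the family, had 213, 190 and 160 CPM in Input and 701, 754 and 921 CPM in YTHDF1 RIP. Its changes were 2.08 ± 0.20, 1.05 ± 0.20 and 1.36 ± 0.20. Usp10, a partner of the stress granule protein G3BP1, rose by 1.16 ± 0.15, 1.06 ± 0.15 and 0.98 ± 0.15. Usp25 rose by 0.68 ± 0.21 in YTHDF1 RIP, a call that Input replicate 3 and YTHDF1 RIP replicate 3 each decided (0.44 to 0.45), and by 0.88 ± 0.21 in YTHDF3 RIP, and had 0.17 ± 0.21 in YTHDF2 RIP. Its paralogue Usp28 had 0.26 ± 0.16, 0.74 ± 0.16 and 0.71 ± 0.16 and passed in the YTHDF2 and YTHDF3 RIPs. With no filter on low counts, the Usp28 call in YTHDF2 RIP was lost (0.63, adjusted p = 0.16, edgeR). Usp39, a splicing factor without protease activity, passed in none, at -0.39 ± 0.19, -0.31 ± 0.19 and -0.49 ± 0.19. With the replicate number as a block in the 2 groups alone, it was depleted in YTHDF3 RIP (-0.44, adjusted p = 0.0011, edgeR).

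Of the 10 remaining members, 6, 6 and 7 were enriched and 1 was depleted in each RIP. Usp35 (chr7:97309380-97332020, minus strand) had 7.01, 16.1 and 17.3 CPM in Input and 88.1, 121.9 and 119.0 CPM in YTHDF2 RIP. Its YTHDF1 libraries had 21.9, 20.6 and 18.8 CPM and its YTHDF3 libraries 16.7, 20.3 and 26.8 CPM. The 3 YTHDF2 libraries stood far above the other 9. The log2 change was 3.03 ± 0.32 in YTHDF2 RIP (8.17-fold, adjusted p = 0.00021, edgeR), against 0.60 ± 0.30 and 0.66 ± 0.30 in the YTHDF1 and YTHDF3 RIPs. The last of these passed with the replicate number as a block in the 2 groups alone (0.77, adjusted p = 1.07e-05, edgeR).

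Usp53 and Usp54 are paralogues. Usp53, a protein of cell junctions, had 17.0, 20.3 and 16.5 CPM in Input and 90.8, 63.3 and 112 CPM in YTHDF1 RIP, with changes of 2.31 ± 0.25, 1.03 ± 0.25 and 1.07 ± 0.24. Usp54 had 12.5, 24.0 and 19.2 CPM in Input and changes of 1.07 ± 0.33, 1.29 ± 0.33 and 1.11 ± 0.33. Its YTHDF1 call ended on leaving out Input replicate 1, Input replicate 3 or YTHDF1 RIP replicate 3 (0.75 to 1.00), and its YTHDF3 call without Input replicate 1 or YTHDF3 RIP replicate 2 or 3 (0.88 to 1.01). Usp24 rose by 1.40 ± 0.24, 0.87 ± 0.24 and 1.17 ± 0.24, and its YTHDF2 call was lost without Input replicate 1 or YTHDF2 RIP replicate 3 (0.73). Usp38 rose by 1.13 ± 0.20, 0.97 ± 0.20 and 1.19 ± 0.20. Usp29 and Usp31 rose in the YTHDF1 and YTHDF3 RIPs. Usp29 had 0.98 ± 0.28, 0.30 ± 0.28 and 0.91 ± 0.28, its YTHDF1 call lost without Input or YTHDF1 RIP replicate 3 (0.62 to 0.78) and its YTHDF3 call without Input replicate 2 or 3 or YTHDF3 RIP replicate 1 or 2 (0.73 to 0.94). Usp31 had 1.74 ± 0.30, 0.75 ± 0.29 and 1.11 ± 0.29, of which the YTHDF2 value passed by DESeq2 (0.73, adjusted p = 0.046) but not by edgeR (adjusted p = 0.068).

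Usp50 (chr2:126709096-126783470, minus strand) was depleted in every RIP. It had 142, 135 and 107 counts in Input, 20, 42 and 38 in YTHDF1 RIP, 17, 8 and 14 in YTHDF2 RIP and 24, 15 and 21 in YTHDF3 RIP. On the CPM scale these were 10.8, 9.89 and 11.5 in Input against 0.555 to 2.99 over all RIP libraries. The log2 changes were -2.29 ± 0.34, -2.67 ± 0.35 and -3.87 ± 0.36. Of its exonic bases, 6.57% overlapped another gene on the same strand, for which a read would be counted for both. Usp43, at 3.15 to 7.76 CPM, passed in none of the RIPs, at 0.04 ± 0.32, -0.21 ± 0.33 and 0.32 ± 0.32, and passed in YTHDF3 RIP with the replicate number as a block in the 2 groups alone (0.39, adjusted p = 0.041, edgeR).

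**Figure D2:**
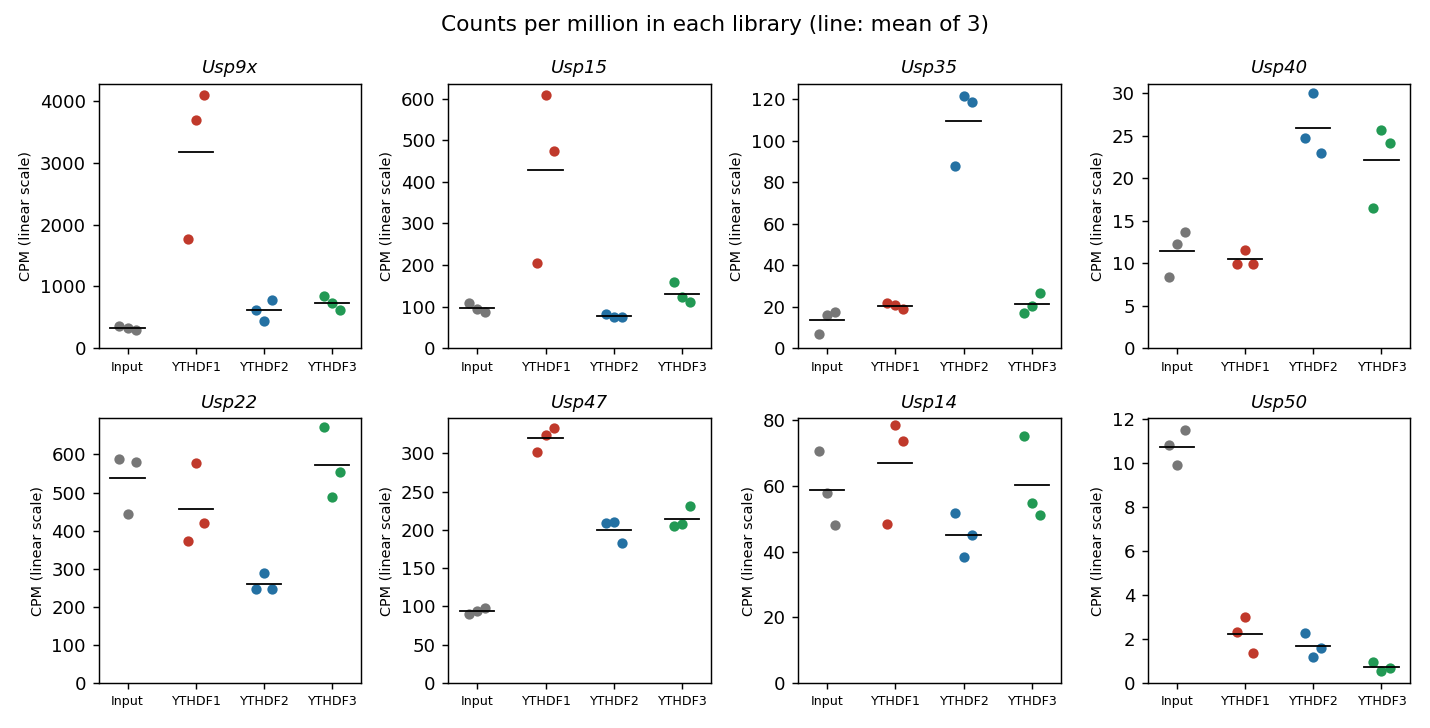
CPM (linear axis from 0) of 8 Usp mRNAs in each library of Input and the 3 RIPs, with 3 points and a line at the mean for each group. The YTHDF1 libraries of Usp9x and Usp15 and the YTHDF2 libraries of Usp35 stand above all other libraries, while Usp22 is lowest in YTHDF2 RIP and Usp50 is highest in Input.

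The RIPs were then compared with each other. Over any difference among the 3 RIPs, tested with no minimum fold change, 20 of 46 members had an adjusted p of 0.05 or less (43.5%, background 32.8%, edgeR). Pairs of RIPs were compared with a fold change of at least 2 as a further threshold. Between the YTHDF1 and YTHDF2 RIPs 9 members differed (background 17.6%), between the YTHDF1 and YTHDF3 RIPs 6 (14.6%) and between the YTHDF2 and YTHDF3 RIPs 3 (5.14%). The members' shares were 19.6%, 13.0% and 6.52%, close to those of all genes.

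Usp9x and Usp15 were higher in YTHDF1 RIP than in both others. Usp9x differed by 2.38 ± 0.33 from YTHDF2 RIP and by 2.13 ± 0.33 from YTHDF3 RIP, and Usp15 by 2.47 ± 0.33 and 1.71 ± 0.32 (log2, SE, edgeR). With library size alone the second Usp15 difference fell under the fold threshold (0.95). Usp53 was also higher in YTHDF1 RIP, by 1.27 ± 0.24 and 1.24 ± 0.24. Neither Usp53 difference passed with the length trend removed (0.65 and 0.79, under the fold threshold) or with library size alone (0.83 and 0.53), and the second also fell under the fold threshold without YTHDF1 RIP replicate 3 (0.90). Usp35 was higher in YTHDF2 RIP, by 2.43 ± 0.31 than in YTHDF1 RIP and by 2.37 ± 0.31 than in YTHDF3 RIP. Usp40 had 8.38, 12.3 and 13.6 CPM in Input and 9.94, 11.5 and 9.92 CPM in YTHDF1 RIP, but 24.7, 30.1 and 23.0 CPM in YTHDF2 RIP and 16.5, 25.7 and 24.1 CPM in YTHDF3 RIP. Against Input it rose by 1.18 ± 0.23 in YTHDF2 RIP and 0.95 ± 0.23 in YTHDF3 RIP and had -0.13 ± 0.23 in YTHDF1 RIP. Its level in YTHDF1 RIP differed by -1.31 ± 0.23 from YTHDF2 RIP and by -1.08 ± 0.23 from YTHDF3 RIP, the latter not without YTHDF3 RIP replicate 2 (-0.96). Usp16, which removes ubiquitin from histone H2A, differed by -1.34 ± 0.23 between the YTHDF1 and YTHDF3 RIPs, and by -0.50 ± 0.23, 0.48 ± 0.23 and 0.84 ± 0.22 from Input in the 3 RIPs, of which the last passed. Against Input, Usp32 rose by 1.15 ± 0.20 and 1.24 ± 0.20 in the YTHDF1 and YTHDF3 RIPs and had 0.00 ± 0.20 in YTHDF2 RIP. Its YTHDF1 call was lost with the replicate number as a block in Input and YTHDF1 RIP alone (1.03, adjusted p = 0.052, edgeR). Usp22 and Usp32 were lower in YTHDF2 RIP than in YTHDF3 RIP, by -1.13 ± 0.22 and -1.24 ± 0.20, and the Usp22 difference was lost without YTHDF2 RIP replicate 1 or 3 or YTHDF3 RIP replicate 1 (-1.1 to -1.0).

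Usp genes have a large summed exonic length, and enrichment in these RIPs went with it. This length had a median of 7.64 kb (2.20 to 18.5 kb), compared with 4.65 kb for 13403 tested protein-coding genes. It adds up all annotated exons of a gene and is not the length of 1 mRNA. Usp29, for example, has 18.1 kb by this measure and 7540 bases in the coding transcript searched. Of the 23 longest members, 17, 13 and 19 were enriched, where 27.5%, 16.1% and 16.7% of all genes tested were. Depleted were 0 in each RIP by edgeR and by DESeq2, and 1, 0 and 0 at an unadjusted p of 0.05 or less. Of the 23 shortest, 9, 6 and 8 were enriched and 3, 2 and 1 depleted, where 26.1%, 19.3% and 23.2% of all genes tested were depleted. Across the members, the Spearman correlation of length with log2 fold change was 0.469, 0.438 and 0.476, and across the protein-coding genes 0.492, 0.363 and 0.537. With coding length it was 0.567, 0.646 and 0.732 across members (0.617, 0.579 and 0.677 across 13283 protein-coding genes) and with 3′UTR length 0.242, -0.0943 and 0.0167 (0.269, 0.0482 and 0.240). With the number of GGACT per transcript it was 0.482, 0.420 and 0.551 across members, and with the number per kilobase 0.0279, 0.198 and 0.206. These are descriptions across genes, which share libraries and are not replicates.

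**Figure D3:**
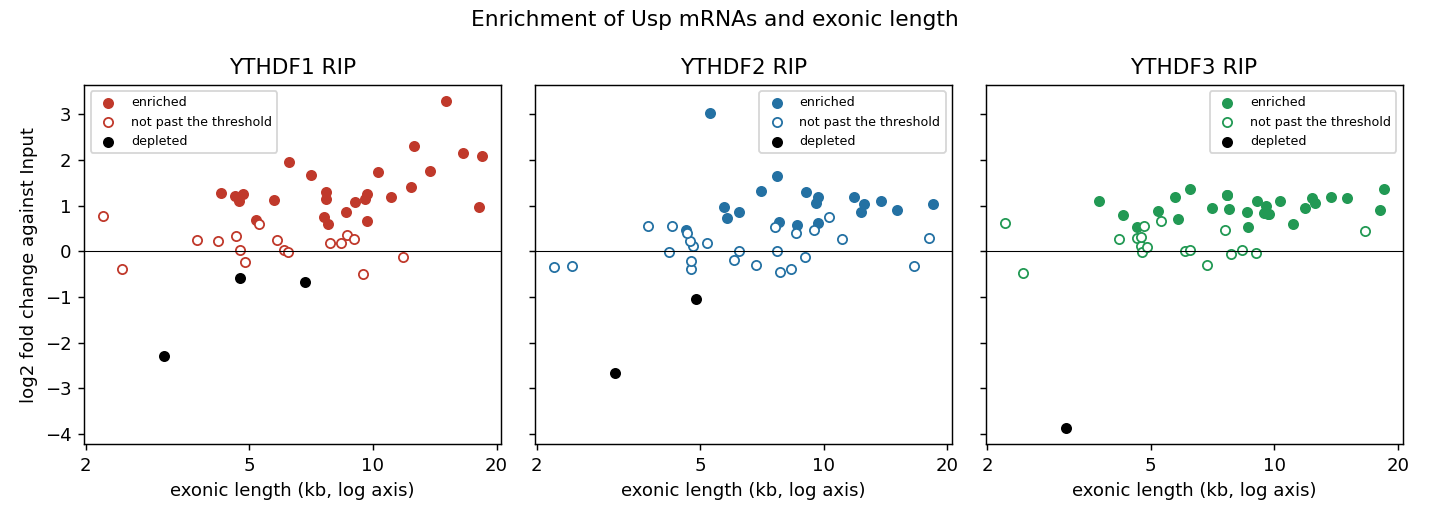
Log2 fold change against Input of the 46 Usp mRNAs (vertical axis) by summed exonic length in kilobases (horizontal log axis), 1 panel a RIP. Filled coloured points were enriched, black points depleted and open points neither, and all depleted members are among the 23 shortest.

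When the trend of each library with summed exonic length was removed before the test, fewer members passed. The counts were 17 enriched and 5 depleted in YTHDF1 RIP, 12 and 5 in YTHDF2 RIP, and 13 and 1 in YTHDF3 RIP. All genes tested then had 22.5%, 13.1% and 15.2% enriched, against 37.0%, 26.1% and 28.3% of the members. The shares of all genes depleted were 24.7%, 16.6% and 16.9%. Usp19, Usp34, Usp36, Usp38, Usp42 and Usp47 were enriched in all 3 RIPs in this test too, while Usp7, Usp29 and Usp48 turned to -0.02, -0.47 and -0.12 in YTHDF1 RIP. Of the 78 member calls against Input, 32 were lost. In YTHDF1 RIP these were the 10 of Usp7, Usp10, Usp13, Usp24, Usp25, Usp29, Usp37, Usp48, Usp49 and Usp54. In YTHDF2 RIP they were the 7 of Usp4, Usp5, Usp7, Usp9x, Usp24, Usp33 and Usp53. In YTHDF3 RIP they were the 15 of Usp4, Usp9x, Usp12, Usp16, Usp24, Usp28, Usp29, Usp31, Usp33, Usp37, Usp40, Usp48, Usp49, Usp53 and Usp54. Usp9x stayed past the threshold in YTHDF1 RIP but not in YTHDF2 RIP (0.42, adjusted p = 0.23, edgeR) or YTHDF3 RIP, while Usp35 stayed past it in YTHDF2 RIP and Usp50, as depleted, in all 3. A trend with coding length was not removed, although coding length had the higher correlations with log2 fold change. Its median was 2827.5 bases for members and 1449 for 13283 tested protein-coding genes. How much of the remaining gap goes with coding length was not tested.

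**Figure D4:**
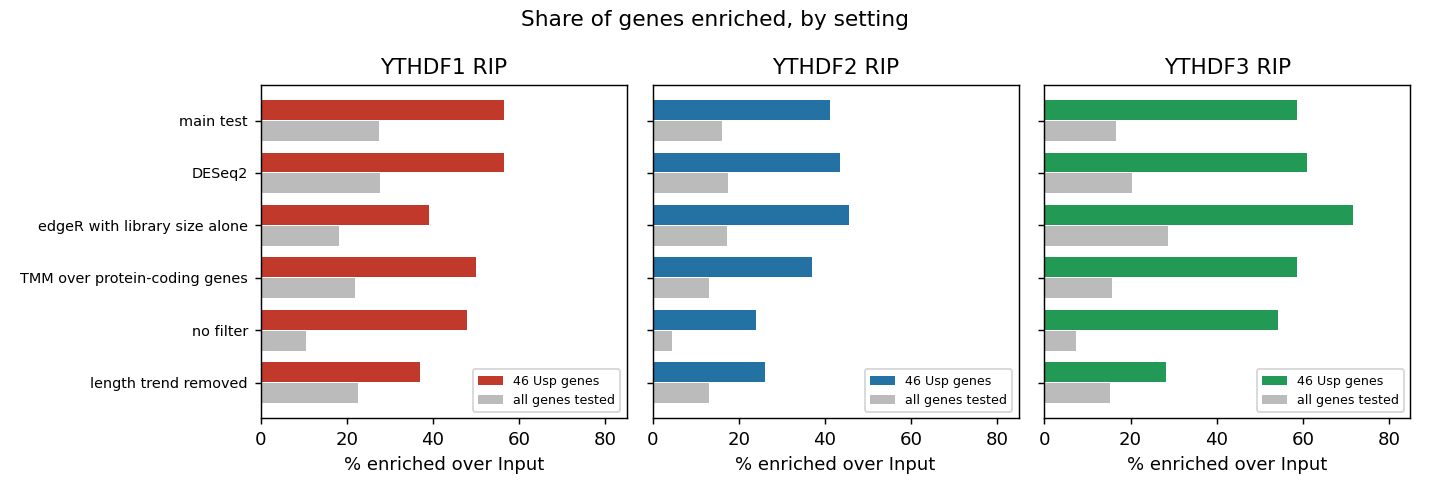
Percentage of the 46 Usp genes (coloured bars) and of all genes tested (grey bars) enriched over Input in each RIP, under the main test and 5 other settings. The coloured bar is longer than the grey one in every panel and setting. The gap is smaller once the trend with summed exonic length is removed, for example 28.3% against 15.2% in YTHDF3 RIP. A trend with coding length was not removed.

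The other genes of the ubiquitin system gave other counts. Of 38 deubiquitinases of other families or names, with a median exonic length of 4.26 kb, 9, 10 and 9 were enriched (23.7%, 26.3% and 23.7%) and 15, 12 and 12 depleted. For this list and those that follow, the shares of all genes tested were 27.5%, 16.1% and 16.7% enriched and 26.1%, 19.3% and 23.2% depleted. Yod1, an OTU-family enzyme of endoplasmic reticulum quality control, had 10.5, 12.2 and 8.36 CPM in Input and 75.3, 194 and 129 CPM in YTHDF1 RIP, a log2 change of 3.68 ± 0.35. Brcc3, which cuts K63-linked chains, was lowest there at -1.69 ± 0.25. Tnfaip3 (A20), an inhibitor of NF-kB signalling, was highest in the YTHDF2 and YTHDF3 RIPs, at 1.58 ± 0.38 and 1.28 ± 0.37, the second not without Input replicate 2 or YTHDF3 RIP replicate 3 (1.09 to 1.15). Eif3f, a subunit of the translation factor eIF3, was lowest in both, at -1.78 ± 0.32 and -2.35 ± 0.32.

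Of 6 genes for ubiquitin and its activating enzymes (median 2.43 kb), 2, 0 and 0 were enriched and 3, 2 and 3 depleted by edgeR. The 0 enriched in the YTHDF2 and YTHDF3 RIPs were also 0 at an unadjusted p of 0.05 or less and by DESeq2. Uba6, an E1 enzyme, rose by 2.30 ± 0.29 in YTHDF1 RIP, and Rps27a, which encodes ubiquitin fused to a ribosomal protein, fell by 2.39 ± 0.55. In YTHDF2 RIP Rps27a was at -1.83 ± 0.54 and Ubb, a polyubiquitin gene, at -0.96 ± 0.26. The first of these was lost without Input replicate 3 or YTHDF2 RIP replicate 1 or 3 (-1.90 to -1.62), the second without Input or YTHDF2 RIP replicate 1 (-0.94 to -0.87). In YTHDF3 RIP Ubb was at -0.86 ± 0.26, a call lost on leaving out Input replicate 1 or 2 or YTHDF3 RIP replicate 2 or 3 (-0.85 to -0.70). Rps27a has many pseudogene copies, so that its counts are uncertain.

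Of 12 partners of Usp proteins (median 6.54 kb), 7, 5 and 5 were enriched and 1, 1 and 0 depleted by edgeR, the last also 0 at an unadjusted p of 0.05 or less and by DESeq2. Stam, the endosomal partner of Usp8, had 54.3, 50.1 and 39.8 CPM in Input and 140, 537 and 282 CPM in YTHDF1 RIP, a log2 change of 2.73 ± 0.39. Sart3, which recruits Usp4 and Usp15 to the spliceosome, rose by 1.41 ± 0.21 in YTHDF2 RIP. Atxn7l3 and Atxn7, in the same SAGA module as Usp22, rose 2.38-fold and by 0.69 ± 0.18 (log2) in YTHDF3 RIP, the highest and lowest of the 5. Eny2 of that module was depleted by edgeR in the YTHDF1 and YTHDF2 RIPs, at -0.91 ± 0.20 in each.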

How the data were processed

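RNA was measured in 12 libraries, 3 each of Input and YTHDF1, YTHDF2 and YTHDF3 RIP. Per the submitters' processing notes and the study's methods, the authors made stranded total-RNA libraries, handled molecular identifiers with UMI-tools 1.1.1, trimmed with cutadapt 3.4, aligned to mm10 (GRCm38) with STAR 2.7.7a and counted fragments per gene with featureCounts 2.0.1. The deposited counts are raw whole numbers per gene. Per the file headers, reads overlapping several genes or with several alignments were counted for each, which inflates families and overlapping genes. Of Usp49, 51.2% of exonic bases overlap another gene on the same strand. The authors' tables of DESeq2 comparisons with Input hold fold changes and p-values, which were not used. Only the symbols and biotypes of the YTHDF1 table were used, to find the members.

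The counts of 16820 genes (mean normalized count 10 or more) were scaled by TMM and tested with edgeR 4.0.16 (quasi-likelihood, 1 model over all 12 libraries, R 4.3.3) with Benjamini-Hochberg adjustment. SE is the log2 fold change divided by the square root of F. CPM use the TMM factors. DESeq2 1.42.0, other scalings, other filters, a replicate block, removal of a length trend (summed exonic length, loess, span 0.3) and leaving out each library were alternatives. Scripts were tested on simulated data. No 2 libraries were copies. Correlations of deviations between same-numbered RIP and Input libraries were 0.09, -0.269 and -0.329 for YTHDF1, 0.186, -0.326 and -0.318 for YTHDF2, and 0.835, 0.539 and 0.812 for YTHDF3. Same-numbered libraries thus deviated together for YTHDF3. Differently numbered libraries were not compared, so the low values do not show that pairing is absent for YTHDF1 and YTHDF2. The methods describe split lysates, and the labels do not say that a number marks a lysate.

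Named genes were those of neuronal or family interest (Usp14, Usp5, Usp9x, Usp7, Usp8, Usp12, Usp46, Usp22 and Usp30), the 4 highest and 3 lowest past the threshold in each RIP whose mean normalized count was 100 or more and whose groups did not overlap, the 2 largest changes each way between RIPs, paralogue sets, the extremes of each related list, and members past the threshold in all 3 RIPs or in none. Values of the remaining members were added after all had been seen. The result of 1 gene of a related list is not reported here. Members and lists were chosen with earlier results of these data known. Fold changes of all 46 members against Input are given in every RIP and were repeated under the alternatives.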

Additional observations from a re-analysis of the deposited data

Results flagged for a closer look

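Differences between RIPs past a fold change of 2 (edgeR, adjusted p at most 0.05) are listed here as log2 values. YTHDF1 RIP differed from YTHDF2 RIP for Usp9x by 2.38, Usp15 by 2.47, Usp32 by 1.14, Usp34 by 1.03, Usp35 by -2.43, Usp40 by -1.31, Usp42 by 1.09, Usp51 by 1.12 and Usp53 by 1.27. YTHDF1 RIP differed from YTHDF3 RIP for Usp9x by 2.13, Usp15 by 1.71, Usp16 by -1.34, Usp40 by -1.08, Usp50 by 1.58 and Usp53 by 1.24. YTHDF2 RIP differed from YTHDF3 RIP for Usp22 by -1.13, Usp32 by -1.24 and Usp35 by 2.37. Between the YTHDF1 and YTHDF2 RIPs, Usp32 fell under the fold threshold without YTHDF1 RIP replicate 3 (0.91), Usp34 without that library, Input replicate 3 or YTHDF2 RIP replicate 2 (0.83 to 0.95), and Usp42 without YTHDF1 RIP replicate 1 or 3 (0.99). Usp51 was lost without Input replicate 3, YTHDF1 RIP replicate 1 or 3 or any 1 YTHDF2 library (0.91 to 1.21). Some of these differences also missed the threshold when all libraries were kept. With the length trend removed, Usp32 (0.85), Usp34 (0.10, adjusted p = 0.69, edgeR), Usp42 (0.93) and Usp53 (0.65) did so between the YTHDF1 and YTHDF2 RIPs and Usp53 (0.79) between the YTHDF1 and YTHDF3 RIPs, also with the replicate block (0.10 to 0.91). With library size alone, Usp32 (0.66), Usp34 (0.56), Usp42 (0.64), Usp51 (0.67) and Usp53 (0.83) did so in the first comparison and Usp15 (0.95), Usp50 (0.87, adjusted p = 0.071, edgeR) and Usp53 (0.53, adjusted p = 0.091, edgeR) in the second. Between the YTHDF1 and YTHDF2 RIPs, TMM over protein-coding genes gave Usp34 0.90, Usp42 0.96 and Usp51 0.99, a minimum mean of 50 gave Usp34 0.92 and Usp42 0.99, and no filter gave Usp51 1.18 (adjusted p = 0.093, edgeR).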

How the results depend on the processing

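Of 78 member calls against Input, 37 kept their direction and their side of the threshold in all 12 fits without 1 library and all 11 other alternatives. Among these were Usp9x, Usp53 and Usp5 in YTHDF1 RIP, Usp35, Usp22 and Usp40 in YTHDF2 RIP, Usp7 in YTHDF3 RIP, and Usp19, Usp34, Usp36, Usp38, Usp47 and Usp50 in all 3. DESeq2 and edgeR with median-ratio factors kept all 78. The length trend moved the most calls, and 3 libraries a group limit what small changes can be resolved. Whether an mRNA was bound by the reader or retained by beads cannot be told apart without a control antibody.

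With the length trend removed, 17 members were enriched and 5 depleted in YTHDF1 RIP, 12 and 5 in YTHDF2 RIP, and 13 enriched in YTHDF3 RIP. Adding the replicate block gave 15 and 5, 12 and 5, and 15. The members enriched in all 3 RIPs fell from 14 to 6 with the length trend removed (6 also with the replicate block), to 8 with no filter, and to 9 for groups compared alone with the replicate block. That last fit had 16 enriched and 1 depleted in YTHDF1 RIP, where 14.2% and 18% of all genes were. It had 2 depleted in YTHDF3 RIP, where 32.3% of all genes were. With library size alone, 6 were depleted in YTHDF1 RIP (36.5% of all genes) and 10 differed between the YTHDF1 and YTHDF3 RIPs. TMM over protein-coding genes gave 5 depleted in YTHDF1 RIP and 2 in YTHDF3 RIP, where 32.4% and 24.2% of all genes were. A minimum mean of 50 also gave 5 and 2. With no filter, where more genes were tested, 11 were enriched in YTHDF2 RIP and 1 depleted in YTHDF1 RIP. Of the 78 member calls against Input, 17 were lost with no filter. In YTHDF1 RIP these were the 6 of Usp3, Usp7, Usp13, Usp21, Usp25 and Usp48. In YTHDF2 RIP they were the 8 of Usp4, Usp5, Usp7, Usp9x, Usp24, Usp28, Usp33 and Usp42. In YTHDF3 RIP they were the 3 of Usp4, Usp12 and Usp37. The cause of the other changes was not tested. Counts above without a share of all genes beside them do not tell how the members moved against the rest.

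Without 1 library at a time, the enriched members numbered 20 to 27, 15 to 20 and 22 to 27 with YTHDF1, YTHDF2 and YTHDF3, the depleted 2 to 4, 2 and 1 to 2, and those enriched in all 3 RIPs 11 to 15. Between RIPs 5 to 12 (YTHDF1 and YTHDF2), 5 to 8 (YTHDF1 and YTHDF3) and 2 to 5 (YTHDF2 and YTHDF3) differed, and 15 to 28 among the 3. The lowest of the first came without YTHDF1 RIP replicate 3 (5) and the highest of the third without YTHDF1 RIP replicate 2 (5). These ranges have no share of all genes beside them, so they do not tell how the members moved against the rest.

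In the fit over all 12 libraries, the replicate block cost 2 of the 78 calls, Usp5 and Usp9x in YTHDF2 RIP, and turned Usp45 in YTHDF1 RIP to 0.03. In groups compared alone, the replicate block left 62 of 78 calls. The 16 lost were in the YTHDF1 and YTHDF2 RIPs, whose correlations with same-numbered Input libraries were 0.186 or lower. In YTHDF1 RIP they were the 12 of Usp2, Usp3, Usp7, Usp11, Usp13, Usp21, Usp25, Usp29, Usp32, Usp48, Usp49 and Usp54. In YTHDF2 RIP they were the 4 of Usp4, Usp5, Usp9x and Usp33.

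31 log2 fold changes changed sign in some alternative, and 3 of them were past the threshold in the report (Usp7, Usp29 and Usp48 in YTHDF1 RIP). With the length trend removed, YTHDF1 RIP gave Usp4 -0.35, Usp7 -0.02, Usp14 -0.51, Usp20 -0.48, Usp28 -0.10, Usp29 -0.47, Usp30 -0.36, Usp43 -0.19, Usp46 -0.46 and Usp48 -0.12, YTHDF2 RIP gave Usp2 -0.04, Usp25 -0.03, Usp29 -0.23, Usp32 -0.33, Usp37 -0.13 and Usp45 -0.24, and YTHDF3 RIP gave Usp14 -0.41, Usp15 -0.29, Usp22 -0.03, Usp30 -0.24 and Usp45 -0.24. With the replicate block as well, these were Usp4 -0.35, Usp7 -0.02, Usp14 -0.47, Usp20 -0.47, Usp28 -0.09, Usp29 -0.49, Usp30 -0.36, Usp43 -0.18, Usp46 -0.45 and Usp48 -0.13, then Usp2 -0.12, Usp25 -0.02, Usp29 -0.24, Usp32 -0.32, Usp37 -0.12 and Usp45 -0.22, then Usp14 -0.41, Usp15 -0.29, Usp22 -0.04, Usp30 -0.24 and Usp45 -0.26. With library size alone, YTHDF1 RIP gave Usp1 -0.17, Usp4 -0.05, Usp8 -0.16, Usp12 -0.08, Usp14 -0.24, Usp20 -0.13, Usp28 -0.14, Usp30 -0.36, Usp43 -0.38 and Usp46 -0.25, YTHDF2 RIP gave Usp8 0.06, and YTHDF3 RIP gave Usp3 0.04, Usp20 0.28, Usp21 0.31 and Usp46 0.28. TMM over protein-coding genes gave Usp1 -0.00, Usp8 -0.01, Usp14 -0.07, Usp30 -0.21, Usp43 -0.21 and Usp46 -0.08 in YTHDF1 RIP, Usp32 -0.11 and Usp45 -0.10 in YTHDF2 RIP, and Usp14 -0.02, Usp30 -0.03 and Usp45 -0.03 in YTHDF3 RIP. No filter gave Usp30 -0.01 and Usp43 -0.01, Usp32 -0.10 and Usp45 -0.09, and Usp20 0.09, Usp21 0.11 and Usp46 0.07 in the same order of RIPs. A minimum mean of 50 gave Usp30 -0.08 and Usp43 -0.09 in YTHDF1 RIP and Usp32 -0.01 in YTHDF2 RIP. Groups compared alone gave Usp30 -0.07 and Usp43 -0.08 in YTHDF1 RIP and Usp20 0.01 and Usp21 0.04 in YTHDF3 RIP, and with the replicate block Usp30 -0.09 and Usp43 -0.04, Usp32 -0.00, and Usp20 0.01, Usp21 0.04 and Usp46 0.01. DESeq2 and median-ratio factors each gave Usp43 -0.01 in YTHDF1 RIP, Usp32 -0.01 in YTHDF2 RIP and Usp21 0.02 in YTHDF3 RIP.

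Without 1 library at a time, the values that crossed 0 ranged in YTHDF1 RIP from -0.06 to 0.38 for Usp14, -0.18 to 0.11 for Usp30, -0.26 to 0.13 for Usp43, -0.46 to 0.14 for Usp45 and -0.12 to 0.40 for Usp46. In YTHDF2 RIP they ranged from -0.14 to 0.41 for Usp2, -0.16 to 0.11 for Usp8, -0.29 to 0.00 for Usp20, -0.00 to 0.28 for Usp25, -0.07 to 0.11 for Usp32 and -0.24 to 0.16 for Usp45. In YTHDF3 RIP they ranged from -0.16 to 0.18 for Usp14, -0.15 to 0.07 for Usp20, -0.09 to 0.07 for Usp21, -0.05 to 0.19 for Usp22, -0.11 to 0.12 for Usp30, -0.27 to 0.28 for Usp45 and -0.10 to 0.05 for Usp46. None of these values was past the threshold in the report.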
